A study of Mus musculus with 7 samples.

Results

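The regions described here are the promoter regions of mouse islet endocrine cells that were called open in every library of the series. They were selected on the presence of an ATAC-Seq peak: the autosomal peaks of all 7 peak lists were merged wherever they overlapped by at least 1 bp, and a region was kept when all 7 lists had a peak in it and it lay within 1 kb of the annotated 5' end (the transcription start site, TSS) of a protein-coding gene. This gave 7782 pan-islet promoter regions of 770043 merged regions, or 1.01% of them. They make up 45.5% of the 17088 regions called in all 7 lists, while 8914 of the others lay more than 3 kb from any such TSS and are called distal regions here. Because the calls themselves chose the regions, that they are open in all 7 libraries is a property of the selection and not a result.

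In ATAC-Seq, Tn5 transposase cuts DNA that nucleosomes leave exposed, so a peak marks accessible chromatin and its summit the most accessible point. Promoters of genes that most cells use are commonly rich in CpG dinucleotides and stay nucleosome-depleted in many tissues, whereas enhancers more often open in a cell type-restricted way. The islet's alpha cells release glucagon, its beta cells insulin, and its delta cells somatostatin, and all arise from a common endocrine progenitor and share much of their transcription factor and secretory machinery.

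Cells were FACS-sorted from islets of healthy mice that carried mIns1-H2b-mCherry, a nuclear red reporter driven by an Ins1 promoter that marks beta cells, together with Rosa-LSL-YFP, a yellow reporter that Cre switches on. Gcg-Cre marked alpha cells and Sst-Cre marked delta cells in separate crosses, so a YFP label follows past or present activity of the Cre driver, and animals were pooled by sex. Beta cells were sorted from both crosses, and the labels do not say which cross each beta library came from. The study states that its cell types came from the same animals, and shared animals were not modelled here. Between alpha and delta libraries, cell type and cross cannot be told apart. The lists comprised 2 alpha, 3 beta, and 2 delta libraries, labelled as biological replicates, and the age of the mice was not given in the sources used here. The lists held 73010 to 149380 autosomal peaks apart from beta 1, which held 471698, and 5.23% of the beta 1 peaks reached a -log10 q of 2 against 30.3% to 55.0% in the others. Read depth cannot be computed from a peak list. The study gives read totals for each library, which entered no comparison here. It lists fewer unique mapped reads for each of these beta libraries than for either alpha library, with delta 2 among the beta values. Between alpha and beta libraries, cell type and depth therefore cannot be told apart. The part of depth in the weaker beta libraries was not tested. The labels were compared with hallmark genes. A peak within 1 kb of the Gcg TSS was called in alpha 1, alpha 2, and delta 2. At the Sst TSS one was called in beta 1, delta 1, and delta 2, and at the Ins2 TSS in beta 3 alone. This comparison does not settle the beta labels. The names of the beta lists as deposited carry other cell types, and the labels were followed.

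The sequences of 9 of these promoters are shown to make the difference in base composition and motifs visible, each as the part of the 300 bp around the median summit that overlaps no annotated exon. Coordinates are on mm10, the strand is that of the gene for regions with a single gene and the plus strand otherwise, and capitals mark matches to the 14 short motifs described below. Cldnd1, a claudin domain protein gene (chr16:58727789-58727909, plus strand), and Pcmtd1 (chr1:7088686-7088919, plus strand) were among the strongest regions in all 7 lists, and Ap1g2, which encodes an adaptor protein subunit (chr14:55106594-55106718, minus strand), was among the weakest.
Cldnd1: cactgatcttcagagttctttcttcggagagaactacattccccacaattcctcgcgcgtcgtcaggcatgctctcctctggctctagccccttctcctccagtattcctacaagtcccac
Pcmtd1: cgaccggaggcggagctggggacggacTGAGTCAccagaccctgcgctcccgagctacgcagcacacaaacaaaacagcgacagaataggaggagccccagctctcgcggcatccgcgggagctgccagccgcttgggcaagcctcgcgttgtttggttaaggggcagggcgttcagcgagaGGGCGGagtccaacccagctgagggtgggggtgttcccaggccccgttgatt
Ap1g2: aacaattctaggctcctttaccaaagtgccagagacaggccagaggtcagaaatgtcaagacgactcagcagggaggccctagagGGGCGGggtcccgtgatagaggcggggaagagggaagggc

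The next set held promoters called different in strength between cell types, taken in order of p and passing over those, such as Trpm8/Hjurp and A830018L16Rik, with fewer than 100 bases in a row outside exons. 4930452B06Rik (chr14:8666241-8666385, minus strand) and the shared promoter of Parp3, a poly(ADP-ribose) polymerase, and Rrp9, a pre-ribosomal RNA processing factor (chr9:106477023-106477268, plus strand), were stronger in alpha than in beta cells. Gm11146 (chr16:77602602-77602901, minus strand) and Lix1l (chr3:96600892-96601148, plus strand) were stronger in beta than in alpha cells. Mrap2, a melanocortin receptor accessory protein gene (chr9:87144107-87144305, plus strand), was stronger in beta than in delta cells, and the shared promoter of Fam221b and Tmem8b (chr4:43669173-43669286, plus strand) was stronger in delta than in beta cells.
4930452B06Rik: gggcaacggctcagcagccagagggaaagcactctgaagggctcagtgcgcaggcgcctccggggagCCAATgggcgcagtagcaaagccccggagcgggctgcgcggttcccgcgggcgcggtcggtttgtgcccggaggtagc
Parp3/Rrp9: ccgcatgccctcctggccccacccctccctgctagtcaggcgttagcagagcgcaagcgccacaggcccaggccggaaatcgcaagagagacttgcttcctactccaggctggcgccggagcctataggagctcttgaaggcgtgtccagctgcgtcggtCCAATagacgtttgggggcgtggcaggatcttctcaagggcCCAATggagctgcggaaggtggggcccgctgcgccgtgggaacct
Gm11146: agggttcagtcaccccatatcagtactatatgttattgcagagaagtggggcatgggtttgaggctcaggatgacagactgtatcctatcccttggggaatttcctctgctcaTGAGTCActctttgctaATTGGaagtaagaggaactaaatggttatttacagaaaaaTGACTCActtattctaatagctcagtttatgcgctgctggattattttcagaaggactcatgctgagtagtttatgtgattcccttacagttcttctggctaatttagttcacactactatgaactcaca
Lix1l: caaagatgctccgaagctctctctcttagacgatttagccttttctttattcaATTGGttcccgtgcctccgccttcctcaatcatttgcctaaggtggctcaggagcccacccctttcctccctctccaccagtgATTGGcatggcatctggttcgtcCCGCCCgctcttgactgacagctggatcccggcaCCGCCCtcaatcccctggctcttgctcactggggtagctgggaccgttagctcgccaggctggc
Mrap2: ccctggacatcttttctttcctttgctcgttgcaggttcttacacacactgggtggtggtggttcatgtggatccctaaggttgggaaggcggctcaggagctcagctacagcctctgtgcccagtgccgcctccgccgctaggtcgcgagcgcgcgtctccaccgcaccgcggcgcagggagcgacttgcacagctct
Fam221b/Tmem8b: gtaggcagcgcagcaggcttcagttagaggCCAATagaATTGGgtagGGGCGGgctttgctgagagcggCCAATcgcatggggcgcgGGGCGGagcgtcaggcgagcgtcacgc

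Of these 9 stretches, Gm11146 held 1 CpG in 300 bases whereas Pcmtd1 held 19 in 234 bases. The CCAAT box recognised by NFY was found in the stretches of 4930452B06Rik, Parp3/Rrp9, Gm11146, Lix1l, and Fam221b/Tmem8b.

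The 7782 regions had a median width of 854.5 bp (quartiles 700 and 1036 bp), against 593 bp for the distal regions. A base covered by the peaks of all 7 libraries existed in 7288 regions (93.7%), and the stretch covered by all 7 had a median width of 316 bp. The TSS itself lay inside 7060 regions (90.7%). Over the 6789 regions with a single TSS, the summit lay at a median of 16 to 21 bp upstream of the TSS depending on the library, 55.4% to 58.9% of summits were upstream, and 70.7% to 74.2% lay within 200 bp of the TSS. The medians were -20 and -21 bp in delta libraries and -16 to -18 bp in alpha and beta libraries, without overlap, a difference of a few bp that was not tested. The summits of the 7 libraries in a region spanned a median of 110 bp.

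**Figure D1:**
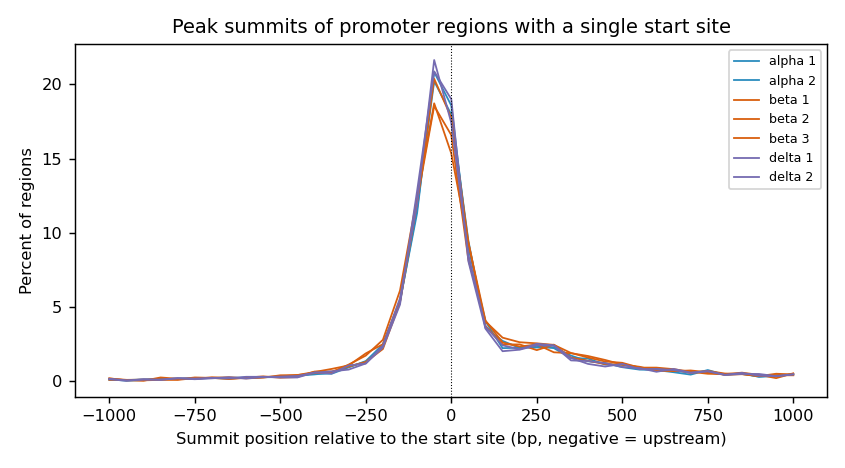
Position of the peak summit relative to the TSS (bp, negative values upstream) as the percent of the 6789 promoter regions with a single TSS, 1 line per library coloured by cell type. All 7 lines peak just upstream of the TSS, with medians between -21 and -16 bp.

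The widest region, 2214 bp, covered the promoter of Hsp90ab1, a cytosolic chaperone, followed by those of Gpc6, a glypican, Rev3l, the catalytic subunit of DNA polymerase zeta, Xkr4, and Zbtb10, a zinc finger protein. Width did not go with strength: Hsp90ab1 had a fold enrichment of 5.24 and 5.71 in alpha, 4.17, 3.33, and 4.95 in beta, and 6.88 and 3.797 in delta libraries, whereas Xkr4, 2081 bp wide, had 11.1 and 12.7, 10.5, 11.7, and 14.2, and 10.96 and 13.1. Fold enrichment here is the signal at the summit over the local background of the same library. Across all promoter regions, Spearman's rho between width and fold enrichment was between -0.0824 and 0.0735 in each of the 7 libraries, computed over 7782 regions that share a library.

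Of the regions, 993 held more than 1 TSS. Among the 955 with 2, 551 were divergent pairs, in which the genes are read away from each other, with a median of 139 bp between the TSSs, 312 were convergent, and 92 lay on the same strand. The proteasome gene Psma2 and the mitochondrial ribosomal protein gene Mrpl32 form a divergent pair, while Tcp1, a subunit of the cytosolic chaperonin, with Mrpl18, and Rpl15 with Nkiras1, have 5' ends that overlap and count as convergent. Regions with the most TSSs were that of the histone genes Hist2h2ab, Hist2h2ac, and Hist2h2be with Bola1, and that of Ubr7, Gon7, Gm28051, and Gm20604, each with 4.

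A gene's promoter had to reach a call in the weakest library to be counted. A further 1766 regions within 1 kb of a TSS were called in exactly 6 lists, and 1099 of these lacked only beta 2, against 235 for beta 3, 225 for beta 1, 100 for delta 2, 62 for alpha 1, 27 for delta 1, and 18 for alpha 2. The genes with a start-site peak in every list but beta 2 included Pdx1 and Ucn3, which mark beta cells, Ttr, which marks alpha cells, and the granule genes Chgb and Ptprn. The median fold enrichment was 5.12 in the 6-list regions and 9.52 in the promoter regions kept. Close to the distance limit, 42 regions lay 900 to 1000 bp from the TSS with a median fold enrichment of 7.35, and 35 regions called in all 7 lists lay 1000 to 1100 bp away with 8.72.

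Promoter regions were called more often than distal ones when the library in question took no part in the choice. For each library, regions were chosen from the other 6 lists alone, and the share with a peak in the library left out was compared between promoter and distal regions. The share of promoter regions called was 99.2% in alpha 1, 99.8% in alpha 2, 97.2% in beta 1, 87.6% in beta 2, 97.1% in beta 3, 99.7% in delta 1, and 98.7% in delta 2. The share of distal regions was 91.45%, 95.7%, 93.7%, 75.8%, 88.0%, 98.1%, and 93.2% in the same order. The promoter share was higher in 7 of 7 libraries, by 1.53 points in delta 1 to 11.8 points in beta 2 and by 6.18 points on average (exact two-sided sign-flip permutation test over 7 libraries, p = 0.0156, the smallest it can give, and 0.03125 after Benjamini-Hochberg adjustment over 4 tests). Promoter regions are wider, and with only the 300 bp around the summit of the other 6 libraries counted, the mean difference was 5.99 points. The choices for different libraries share most of their lists, so the 7 differences are not independent, which the test does not take into account. Promoter regions were also stronger than distal ones, and the shares were not matched for strength.

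Within the regions called in all 7 lists, promoter regions also ranked higher. Each peak was given a percentile by its -log10 p among all peaks of its own list. The median percentile of the promoter regions was 94.0 and 94.3 in alpha, 98.2, 90.3, and 93.3 in beta, and 95.5 and 90.5 in delta libraries, against 86.2 and 87.1, 97.3, 85.7, and 87.7, and 91.6 and 82.5 for distal regions. Promoter regions were higher in 7 of 7 libraries, by 0.869 points in beta 1 and by 7.94 points in delta 2 at the extremes. The mean difference was 5.40 points (exact two-sided sign-flip permutation test, p = 0.0156, adjusted 0.03125). The percentile comes from the -log10 p of the same peak calls that chose both sets. All 7 differences also use the same regions, so they are not independent, which the test does not take into account. The median fold enrichment of the promoter regions was 9.93 and 11.1 in alpha, 6.14, 6.67, and 9.22 in beta, and 11.5 and 10.4 in delta libraries, so that the beta libraries lay below all of the others.

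**Figure D2:**
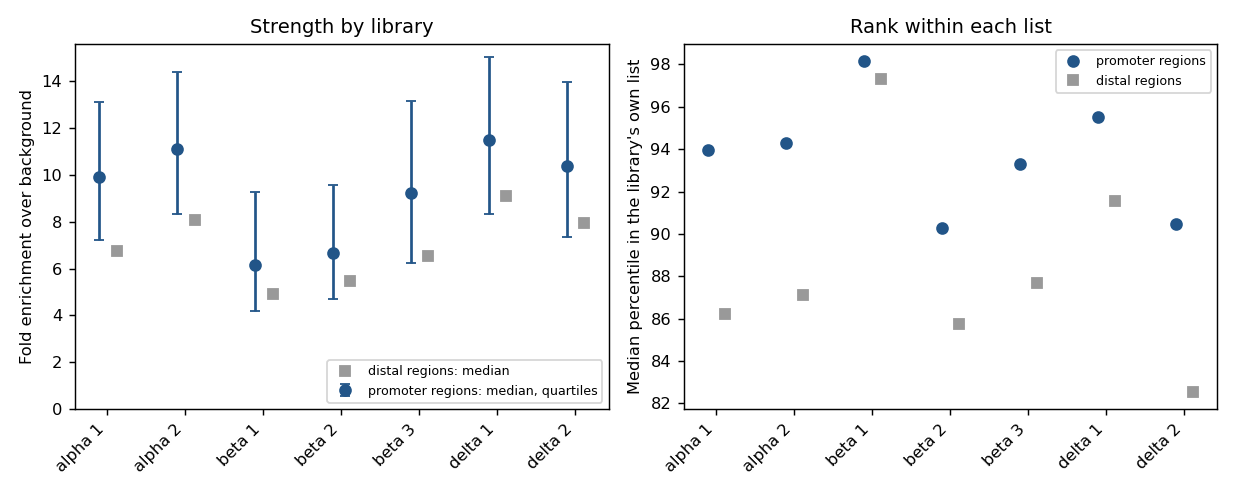
Left, fold enrichment over the local background (points, median; bars, quartiles) of the 7782 promoter regions and median of the 8914 distal regions in each library; right, their median percentile in the library's own list, on an axis that does not start at 0. Promoter regions lie above distal regions in every library, and the 3 beta libraries have the lowest medians of fold enrichment, from 6.14 to 9.22.

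The beta libraries also held the least firmly called promoters. A -log10 q of 2 was reached by 98.5% and 99.4% of the promoter regions in alpha, by 82.5%, 87.6%, and 95.4% in beta, and by 99.0% and 97.9% in delta libraries. The group means were 99.0% ± 0.636 (SD, n = 2), 88.5% ± 6.52 (SD, n = 3), and 98.5% ± 0.800 (SD, n = 2). Every beta share lay below every alpha and delta share. The test of the difference between groups nevertheless did not pass (exact permutation test over 210 assignments, p = 0.114, adjusted 0.114, smallest possible p 0.00952). In all 7 libraries, 5787 promoter regions (74.4%) reached a -log10 q of 2, against 51.5% of distal regions.

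At the strong end, the promoters of Cldnd1, Pcmtd1, Dcbld2, Pex2, Ebag9, Ppm1k, Mettl4, the pair Cggbp1 and Zfp654, and the pair Trpm8 and Hjurp had the highest values of their lowest percentile. Pex2 encodes a peroxisome assembly ubiquitin ligase, Ppm1k a mitochondrial phosphatase of branched-chain amino acid breakdown, and Hjurp the chaperone that loads the centromeric histone. Cldnd1 had a fold enrichment of 25.3 and 25.7 in alpha, 21.2, 24.1, and 28.1 in beta, and 24.3 and 26.2 in delta libraries, and the groups overlapped. Mettl4, which encodes an adenine methyltransferase, had 21.96 and 22.8, 22.9, 23.7, and 24.6, and 24.01 and 23.99. In Cldnd1 the percentile was at least 99.97 in every list.

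The region with the highest lowest percentile, at the predicted gene Gm20594 (chromosome 6, 79817981 to 79818447), stood apart. Its fold enrichment was 32.1 and 32.7 in alpha, 32.7, 33.3, and 32.9 in beta, and 32.7 and 33.2 in delta libraries, and its -log10 p varied by a coefficient of variation of 1.05% over the 7 libraries, against a median of 44.0% for all promoter regions and 9.58% for the next lowest. Over 370 bp it matched the mouse mitochondrial genome at 88.9% identity. The study aligned its reads to an index without mitochondrial DNA, and the part of that match in the peak was not tested. Counting it, 3 of the promoter regions matched the mitochondrial genome over at least 80 bp, and 7779 remained without them.

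At the weak end were the promoters of Clvs1, Ap1g2, Rapgef3, Cfap73, and Tm9sf4, whose percentile reached at most 69.3 to 76.4 in any list. Ap1g2 had a fold enrichment of 4.29 and 4.22 in alpha, 1.79, 3.39, and 2.41 in beta, and 3.797 and 5.56 in delta libraries, and no base of its region was covered by all 7 lists. Rapgef3, which encodes the cAMP sensor Epac1, had 4.17 and 3.90, 1.80, 3.23, and 2.34, and 4.17 and 3.12. For 403 promoter regions the lowest -log10 p over the lists was below 3, so their place among the regions open in all libraries rests on a marginal call in at least 1 list.

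The 7782 regions served 8636 of 20807 autosomal protein-coding genes, which is 41.5% and the background against which the gene lists below are read. Genes that most cells use were above it in all 8 lists examined. All 7 annotated subunits of the cytosolic chaperonin CCT had such a promoter, as did 17 of 20 cytosolic aminoacyl-tRNA synthetases, 40 of 51 translation initiation factors, 31 of 42 spliceosome proteins, 25 of 35 nuclear-encoded complex I subunits, 18 of 28 Mediator subunits, 23 of 38 proteasome subunits, and 47 of 79 cytosolic ribosomal proteins. Among the synthetases, Tars, the threonyl-tRNA synthetase, had a fold enrichment of 21.5 and 22.6 in alpha, 15.3, 18.3, and 21.04 in beta, and 22.6 and 21.2 in delta libraries. The 3 without a call in every list, Farsa, Qars, and Vars, each had a start-site peak in 6 lists and lacked only 1 of the beta libraries.

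Genes of the unfolded protein response, which restores protein folding in the endoplasmic reticulum and is heavily used by secretory cells, were present at 19 of 20. The remaining gene, Atf6, had a start-site peak in every list outside a region of the set. The median of their lowest percentile was 96.0, against 85.7 over all genes with such a promoter. Sel1l, an adaptor of endoplasmic reticulum-associated degradation, had a fold enrichment of 19.8 and 22.7 in alpha, 17.9, 20.2, and 21.6 in beta, and 19.97 and 23.2 in delta libraries. Eif2ak3, which encodes the stress sensor PERK, had 13.8 and 13.8, 14.4, 15.4, and 13.8, and 15.7 and 15.9. Dnajb9 and Edem1, a co-chaperone and a degradation factor, followed with a lowest fold enrichment of 10.5 and 14.3. None of the 19 regions of this list was called between cell types in the limma comparisons described below. At most 1.62% of all promoter regions were called in any direction there, so this does not set the list apart.

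Islet gene lists lay on both sides of the background, from 25% of beta cell disallowed genes to 61.5% of granule genes. Of 19 transcription factors shared by endocrine cells 11 had a promoter open in all libraries, and 15 when any annotated transcript start was used, a definition under which 45.0% of all genes had one. Hnf4g, a nuclear receptor, had a fold enrichment of 13.4 and 14 in alpha, 8.43, 10.4, and 10.7 in beta, and 16.8 and 18.2 in delta libraries. Isl1, a LIM homeodomain factor of all endocrine cells, had 12.5 and 12.04, 10, 9.79, and 11.3, and 12.5 and 12.1, and Neurod1 had 12.2 and 9.95, 8.95, 6.59, and 13.0, and 8.85 and 10.7 in a region shared with Cerkl. Beta libraries were at or below the others for Hnf4g and Isl1, with the highest beta value below both alpha and both delta values, as in promoter regions at large. After quantile normalization the log2 difference between alpha and beta was 0.12 ± 0.20 (SE) for Hnf4g and -0.14 ± 0.22 for Isl1, and neither was called. Nkx2-2, Pax6, Tcf7l2, and St18 had their open region at another transcript start, while Hnf4a, Mlxipl, Myt1, and Prox1 had none in all 7 lists.

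For hormone processing and granule genes the count was 8 of 13, led by Pam, which amidates peptide hormones, Scg5, the chaperone of prohormone convertase 2, Cpe, carboxypeptidase E, and Pcsk2, that convertase. Pam had a fold enrichment of 13.9 and 17.8 in alpha, 11.1, 12.9, and 13.5 in beta, and 15.97 and 18.8 in delta libraries. The granule genes Chga, Chgb, Ptprn, Resp18, and Vgf were not called in all lists. Hormone exocytosis genes reached 7 of 14, led by Rab3a, a small GTPase of secretory vesicles, and Cadps, a vesicle priming factor, and stimulus-secretion channels reached 4 of 11, with Scn9a, Cacna1b, Scn3a, and Abcc8, the sulfonylurea receptor. Beta cell disallowed genes, which beta cells are known to keep at low expression, reached 3 of 12, namely Slc16a1, a monocarboxylate transporter, Acot7, and Rest, a repressor of neuronal genes.

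Hallmark genes of single endocrine cell types lay on both sides of the 41.5% background. The share was 50% for alpha, 16.7% for beta, and 12.5% for delta cell genes. Alpha cell genes reached 4 of 8 (Slc7a2, Dpp4, Gc, and Irx2), beta cell genes 2 of 12 (Mafa and Nkx6-1), and delta cell genes 1 of 8 (Bche). Mafa, a basic leucine zipper activator of the insulin gene, had a fold enrichment of 11.4 and 14.6 in alpha, 7.97, 7.5, and 9.28 in beta, and 13.0 and 13.0 in delta libraries, so the unscaled values were lowest in beta libraries. After quantile normalization the log2 difference of Mafa between alpha and beta was 0.24 ± 0.23 (SE, adjusted p = 0.589 by limma with Benjamini-Hochberg adjustment). Nkx6-1, a homeodomain factor required for beta cells, had 10.2 and 10.1, 7.79, 7.64, and 13.6, and 9.31 and 11.2, and the groups overlapped. Gc, the vitamin D-binding protein, had 10.6 and 11.4 in alpha, 4.24, 3.28, and 4.11 in beta, and 10 and 7.14 in delta libraries, with every beta value below the rest, and its log2 difference between alpha and beta was 1.13 ± 0.34 (SE, adjusted p = 0.0619 by limma). Of the genes outside the set, Ins1 had a start-site peak in all 7 lists that did not fall in a region of the set, and the part of the Ins1 promoter carried by the reporter was not tested.

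Genes of other cells were rare. Acinar cell genes reached 1 of 13 (Bhlha15, with a lowest percentile of 0.838), duct cell genes 1 of 10 (Krt8), and endothelial, immune, and stellate or fibroblast genes 0 of 10, 0 of 12, and 0 of 10. Olfactory receptors reached 2 of 1086 and vomeronasal receptors 2 of 325. Short of all 7 lists, however, 7 of 10 endothelial, 6 of 12 immune, and 8 of 10 stellate or fibroblast genes had a start-site peak in at least 1 list. Cldn5, Esam, and Flt1 of endothelial cells had one in 4 lists, Col1a2, Pdgfrb, and Rgs5 of stellate cells and fibroblasts in 5, and no immune gene in more than 2, while Ptprc and Cdh5 had none. The part of other cells in these peaks was not tested. Of stimulus-responsive genes, circadian clock genes reached 14 of 21 (66.7%), led by Nr1d2, Arntl, Bhlhe40, and Cry2. Immediate early genes reached 12 of 23 (52.2%), led by Klf6, Nr4a2, Jun, and Btg2, which is nearer to the 41.5% of all genes. Neither share was tested. Jun had a fold enrichment of 6.48 and 5.86 in alpha, 7.44, 6.79, and 6.20 in beta, and 6.39 and 5.54 in delta libraries, and the groups overlapped. Beta libraries had lower medians over all promoter regions, whereas the beta values of Jun were level with those of the other cell types. Over all 7 lists, the lowest percentile of Jun by -log10 p was 91.9.

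**Figure D3:**
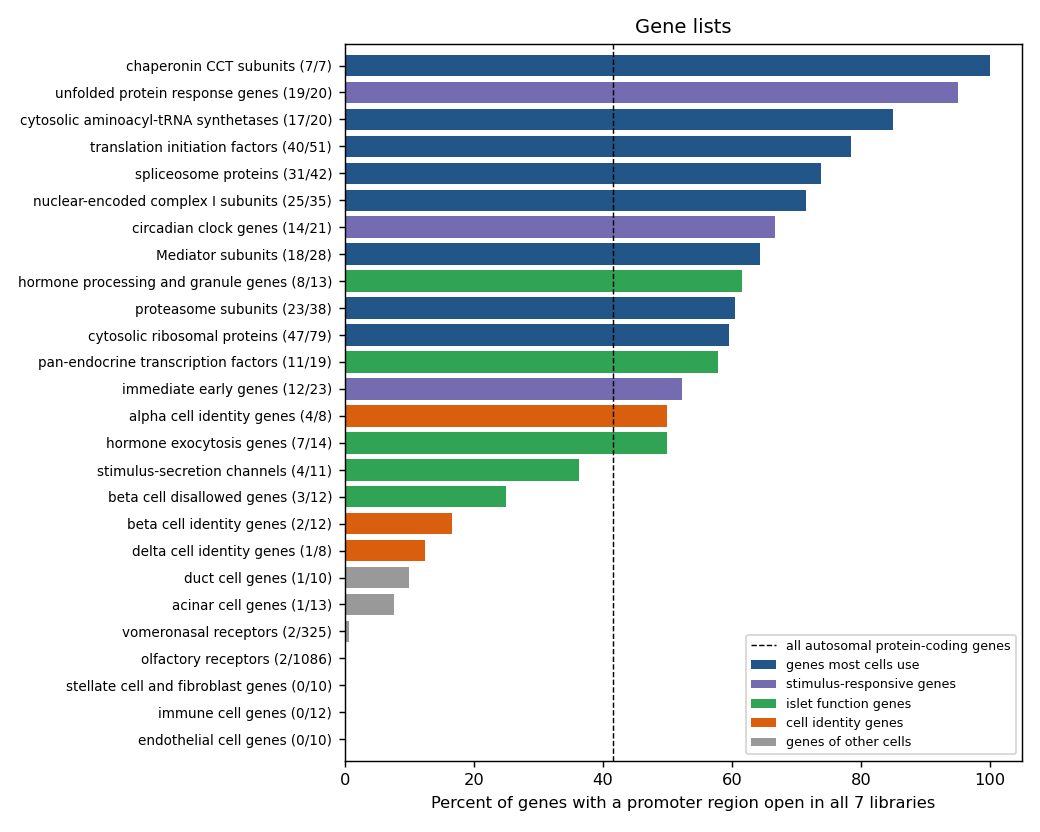
Percent of the genes of each of 26 lists with a promoter region open in all 7 libraries, with the number of genes in parentheses and bars coloured by kind of list. The dashed line marks 41.5% for all autosomal protein-coding genes, and the lists of genes most cells use lie to its right.

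Genes with and without such a promoter differed in CpG content. In the 500 bp around the summit, 6681 promoter regions (85.9%) were CpG-rich, with a GC content of at least 50% and an observed to expected CpG ratio of at least 0.6, against 12.3% of distal regions. The median ratio was 0.821 in promoter and 0.263 in distal regions. Taken over the 500 bp around each annotated TSS, 82.1% of gene starts with a region of the set were CpG-rich, 25.2% of those without, and 3.77% of those with no start-site peak in any list. When gene starts were ordered by CpG ratio and split into 10 bins of like size, the share with a promoter open in all 7 libraries rose at each step, from 1.54% in the lowest bin to 78.2% in the highest. Among the promoter regions, however, CpG ratio did not go with strength, with Spearman's rho between -0.0311 and 0.0401 in the 7 libraries. Gm11146 and Gc, with ratios of 0.110 and 0.208, were open in all lists despite few CpGs.

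**Figure D4:**
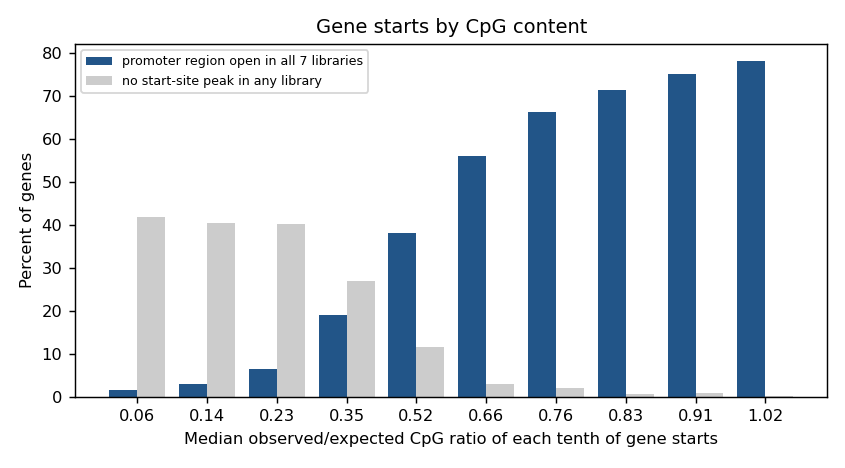
Gene starts split into 10 bins by observed to expected CpG ratio in 500 bp (x axis, median ratio of each bin), with the percent of genes that have a promoter region open in all 7 libraries (dark bars) and the percent with no start-site peak in any library (light bars). The dark bars climb from 1.54% to 78.2% while the light bars fall from 41.8% to 0.288%.

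Short motifs were searched on both strands in the 300 bp around the summit, allowing matches to overlap, and their shares are descriptions of letters and not of bound factors. The SP/KLF box GGGCGG was found in 76.5% of promoter and 17.5% of distal regions, and in 46.3% of all gene starts in a window of the same length. The ETS motif CCGGAAG was found in 19.7%, 3.42%, and 11.7% in the same order, the NRF1 motif GCATGCGC in 5.55%, 1.22%, and 3.31%, the YY1 motif ATGGCGG in 10.1%, 1.90%, and 7.01%, and the NFY box CCAAT in 41.0%, 33.2%, and 36.2%. Other motifs were found in a larger share of distal regions: the AP-1 motif TGACTCA was found in 3.23%, 22.4%, and 4.09%, the FOX motif TGTTTAC in 2.11%, 9.56%, and 2.39%, the NEUROD motif CAGATGG in 3.08%, 10.5%, and 4.29%, the homeodomain motif TAATTA in 0.925%, 8.88%, and 3.88%, and the TATA box TATAAA, a core promoter element, in 3.12%, 12.8%, and 10.7%. The CRE TGACGTCA was found in 3.996%, 1.12%, and 2.32%, the BANP/ZBTB33 motif CTCGCGAGA in 1.85%, 0.0785%, and 0.860%, the E-box CACGTG in 10.6%, 6.28%, and 7.52%, and the RFX motif GTTGCCATG in 0.681%, 1.31%, and 0.649%. Distal and promoter regions differ in base composition, which alone changes how often such letters occur.

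Within the promoter regions, the CCAAT box showed the widest gap between strong and weak regions among the 14 motifs. It was found in 58.6% of the 1946 strongest regions, by mean rank of fold enrichment over the libraries, and in 25.5% of the 1946 weakest, while the SP/KLF box was found in 79.3% and 72.0% and the ETS motif in 22.05% and 16.2%. Divergent regions with 2 TSSs held CCAAT in 52.1% and the ETS motif in 27.8%. These strong and weak sets were formed from the same peak calls as the regions, so the shares are given with no test.

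The relative strength of the promoter regions was more alike between libraries of a cell type than between cell types, but the difference missed the threshold after adjustment. Spearman's rho of fold enrichment over the 7782 regions was 0.839 for the alpha pair, 0.844 for the delta pair, and 0.724, 0.785, and 0.728 for the beta pairs. Between cell types it was 0.789 to 0.814 for alpha with delta, 0.622 to 0.739 for alpha with beta, and 0.666 to 0.773 for beta with delta. For each of the 7 libraries the most similar library carried the same cell type label. Averaged over pairs, rho was 0.784 inside a cell type and 0.726 across cell types, which differ by 0.0584 (exact one-sided permutation test over 210 assignments, p = 0.0381, and 0.0508 after adjustment over 4 tests, which misses 0.05). On -log10 p in place of fold enrichment the difference was 0.0330 with an exact p of 0.124, and with any library left out it was between 0.0434 and 0.0851 with exact p between 0.0667 and 0.1. Without a beta library 0.0667 is the smallest p the design allows and was reached each time, so those 3 tests could not pass. Distal regions gave lower values, 0.673 within and 0.520 between.

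Cell types were then compared region by region. The fold enrichment of all 17088 regions called in all 7 lists was put on a log2 scale, quantile-normalized, and fitted with limma, with p-values adjusted over all of them by the Benjamini-Hochberg method and called under 0.05. Against beta cells, 126 promoter regions were stronger in alpha cells, or 1.62% of them, where 1.96% of all regions were called in this direction. Stronger in beta than in alpha cells were 28 promoter regions (0.360%), where 2.57% of all regions were called. Distal regions accounted for 400 of the 440 calls in that direction. The direction of the split depended on the scaling: with each library centred on its median instead, 84 promoter regions were stronger in alpha and 175 in beta. Over all 17088 regions that scaling called 246 and 864 in the same order. Of the 154 called, 102 were also called under that scaling and none changed sign.

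The promoters with the smallest p among those stronger in alpha cells were 4930452B06Rik, the pair Parp3 and Rrp9, Chchd5, Chuk, and Sema4f. Chchd5 encodes a mitochondrial intermembrane space protein, Chuk the kinase IKK-alpha of the NF-kappaB pathway, and Sema4f a semaphorin. 4930452B06Rik had a fold enrichment of 21.8 and 20.96 in alpha, 6.35, 6.06, and 9.33 in beta, and 18.6 and 23.1 in delta libraries, a log2 difference of 1.27 ± 0.18 (SE) between alpha and beta (adjusted p = 0.00101 by limma). Every beta value was below the alpha and delta values, which overlapped each other, and between alpha and delta the difference was 0.16 ± 0.20.
Chuk had 13.4 and 16.3, 2.70, 4.24, and 3.21, and 14.2 and 11.8, a log2 difference of 1.73 ± 0.31 (adjusted p = 0.00439 by limma). The beta values again lay below all others, while alpha and delta values overlapped. Parp3/Rrp9 had 20 and 20.7, 6.34, 6.62, and 10.1, and 18.7 and 14.2, with a log2 difference of 1.12 ± 0.19 (adjusted p = 0.00337 by limma).

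Promoters stronger in beta than in alpha cells were led by Trpm8 and Hjurp, Gm11146, Lix1l, Defb8, a defensin gene, and Maco1. Lix1l had a fold enrichment of 4.64 and 5.38 in alpha, 9.85, 10.9, and 10.3 in beta, and 11.6 and 10.7 in delta libraries, a log2 difference between alpha and beta of -1.43 ± 0.28 (adjusted p = 0.00698 by limma). Here the alpha libraries stood apart and beta and delta values were close. The region of Trpm8 and Hjurp had 14.9 and 14.6, 21.9, 20.9, and 25.7, and 17.4 and 19.7, with the alpha values lowest and the beta values highest without overlap and a log2 difference of -0.78 ± 0.13 (adjusted p = 0.00296 by limma). Defb8 had 2.998 and 3.67, 7.14, 7.93, and 10.4, and 3.47 and 5.38, a log2 difference of -1.73 ± 0.35 (adjusted p = 0.00811 by limma). The delta values of Defb8 lay between the lowest alpha and the lowest beta value.

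Between alpha and delta cells the fewest promoters were called. No promoter region was stronger in alpha than in delta cells, where 0.146% of all regions were called and 269 promoter regions had an unadjusted p under 0.05, and only limma was run. A single one was stronger in delta cells, where 0.486% of all regions were called: Gm11146 had a fold enrichment of 5.15 and 8.44 in alpha, 9.03, 14.3, and 12.5 in beta, and 21.5 and 19.6 in delta libraries. Its log2 difference between alpha and delta was -1.70 ± 0.25 (adjusted p = 0.00274 by limma). The groups were ordered alpha, beta, delta without overlap. It reached no call without delta 1 or without delta 2. The closest to a call in the other direction was Rab38, a GTPase of lysosome-related organelles, with 16.96 and 14.4 in alpha and 4.43 and 4.84 in delta libraries (log2 difference 1.91 ± 0.47, adjusted p = 0.0704 by limma).

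Between beta and delta cells, 41 promoter regions (0.527%) were stronger in delta, where 0.749% of all regions were called, and 7 (0.0900%) were stronger in beta, where 0.497% were called. With median centring these counts were 20 and 70, where 99 and 275 of all 17088 regions were called. Of the 48 promoter regions called with quantile normalization, 25 were also called with the same sign under median centring and 1 changed sign. Fam221b/Tmem8b, 4930452B06Rik, Lrrk2, Iars, and Zfp691 led those stronger in delta. Lrrk2, a kinase mutated in familial Parkinson's disease, had a fold enrichment of 6.56, 6.67, and 11.6 in beta and 22.98 and 20 in delta libraries, beside 18.1 and 19.0 in alpha libraries, and its log2 difference between beta and delta was -1.04 ± 0.18 (adjusted p = 0.00625 by limma). Iars, the isoleucyl-tRNA synthetase, had 12.1, 10.3, and 15.8 in beta and 24.5 and 24.8 in delta libraries (log2 difference -0.72 ± 0.13, adjusted p = 0.0118 by limma, and 0.262 with median centring). Zfp691 and Fam221b/Tmem8b also missed the threshold with median centring.

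The promoters stronger in beta than in delta cells included A830018L16Rik, Mrap2, Klf6, Sav1, and App. A830018L16Rik had a fold enrichment of 13.1 and 13.1 in alpha, 15.7, 15.2, and 20.2 in beta, and 7.47 and 9.33 in delta libraries, a log2 difference between beta and delta of 1.45 ± 0.21 (adjusted p = 0.00305 by limma). Mrap2 had 11.6 and 11.2, 11.8, 9.42, and 15.1, and 7.22 and 4.84, a log2 difference of 1.52 ± 0.27 (adjusted p = 0.00824 by limma). In both, the delta libraries alone were low. App, the amyloid precursor protein gene, had 7.65, 9.52, and 15.3 in beta and 6.25 and 6.84 in delta libraries (log2 difference 1.21 ± 0.28, adjusted p = 0.0324 by limma). Klf6, a zinc finger factor of the immediate early list, had 18.7, 15.99, and 19.3 against 13.7 and 13.2 (0.76 ± 0.16, adjusted p = 0.0244 by limma, and 0.149 on -log10 p). With a replicate block, Sav1 and App missed the threshold (adjusted p = 0.0623 and 0.0625 by limma). Beta 3 is the only library numbered 3, so the block takes it out of the contrasts. It held the highest beta value of both genes.

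**Figure D5:**
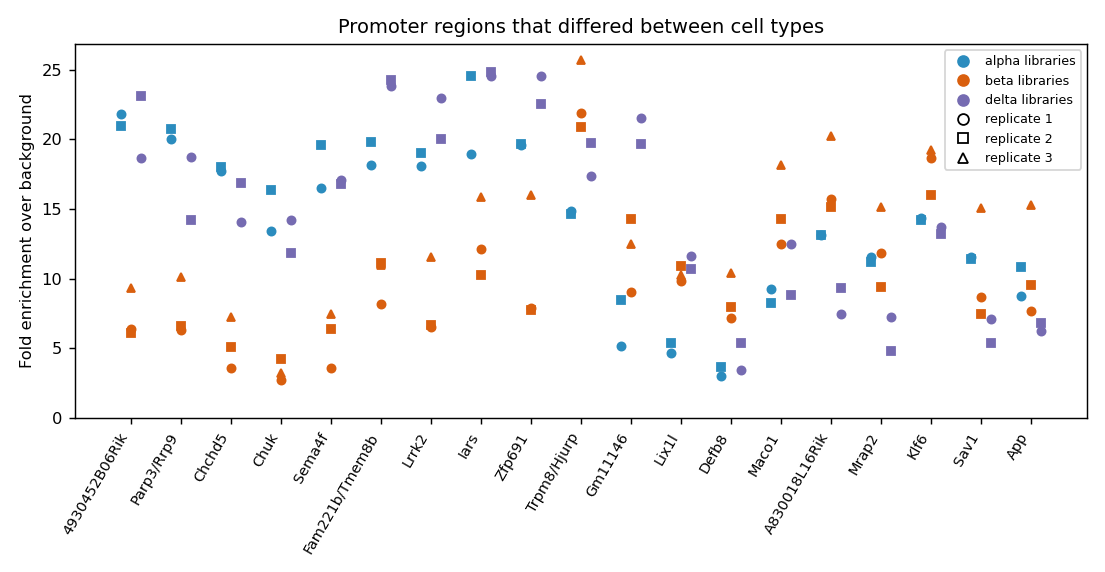
Fold enrichment over local background (y axis) of 19 promoter regions called between cell types, 1 point per library, coloured by cell type with replicates 1 to 3 as circles, squares, and triangles. The 9 regions on the left have beta values below alpha and delta values, and the delta values of Gm11146, 21.5 and 19.6, are the highest of that region.

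These calls rested on few libraries. Without alpha 1 or alpha 2 the promoter regions stronger in alpha than in beta numbered 0 and 1, with 198 without beta 3, 60 without delta 1, and 55 without delta 2, and those stronger in beta numbered 2, 1, and, without beta 1, delta 1, and delta 2, 18, 18, and 15. Those stronger in delta than in beta numbered 9 and 12 without alpha 1 and alpha 2, 72 and 91 without beta 2 and beta 3, and 0 without either delta library, and those stronger in beta than in delta numbered 2, 3, 12 without beta 2, 0 without delta 1, and 1 without delta 2.

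Of the gene lists, few members were called between cell types. Stronger in alpha than in beta cells were the complex I genes Ndufab1 and Ndufb9, 2 of 25 regions, the spliceosome genes Snrnp200, Snrpg, and Snrnp48, 3 of 33 regions, the translation initiation gene Eif2d, 1 of 43, the synthetase gene Iars, 1 of 17, and the clock output gene Tef, 1 of 15, where 1.62% of all promoter regions and 1.96% of all regions were called. No region of the granule, exocytosis, channel, pan-endocrine, or identity lists was called in any contrast, although the Gc values above did not overlap between alpha and beta libraries. Each of these lists held at most 11 regions, so the lack of calls does not set them apart from other promoters. Among lists with at least 10 regions, the median log2 difference between alpha and beta ran from -0.54 in the 13 immediate early regions to 0.27 in the 23 proteasome regions, neither with a call in this contrast, against 0.07 over all promoter regions. It was 0.24 for translation initiation factors, 0.24 for synthetases, 0.20 for complex I, and 0.15 for spliceosome regions.

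The sequences of the promoters called between cell types are described next, with no test. CCAAT was found in 61.9% of the 126 regions stronger in alpha, in 46.4% of the 28 stronger in beta, and in 73.2% of the 41 stronger in delta than in beta, against 41.0% of all promoter regions. The AP-1 motif was found in 4.76%, 14.3%, and 0%, against 3.23%. The median fold enrichment of the 126 regions was 15.9 and 16.5 in alpha and 4.63, 5.23, and 7.64 in beta libraries, so they lay above the medians of all promoter regions in alpha and below them in beta. For the 28 regions it was 8.94 and 9.59 in alpha and 12.4, 13.9, and 15.2 in beta libraries, below those medians in alpha and above them in beta. These differences follow from how the sets were called. The part of strength in the motif shares was not tested. Of the 28 regions stronger in beta cells, 64.3% were CpG-rich, against 85.9% of all promoter regions.

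The position of the promoters called between alpha and beta cells is given as a description, with no test. Of the 126 promoter regions stronger in alpha cells, 17 lay on chromosome 7 beyond 120 Mb, which holds 106 promoter regions or 1.36% of all, so 16.04% of the promoters there were called and none was stronger in beta cells. Genes of this stretch called in alpha included Mki67, a proliferation marker, Mgmt, a DNA repair enzyme, Ctsd, the lysosomal protease cathepsin D, and Hras. The stretch and these genes were chosen after their values were seen. The median log2 difference between alpha and beta was 0.59 over the 106 regions, against -0.07 over the rest of chromosome 7 and 0.07 over all promoter regions. Taken against the mean of the 7 libraries, the median deviation was 0.32 and 0.32 in alpha, -0.38, -0.24, and -0.20 in beta, and 0.18 and 0.08 in delta libraries, so the 3 beta libraries were low and the others high. With each library centred on the median of its promoter regions, the same deviations were 0.25 and 0.25, -0.33, -0.13, and -0.24, and 0.19 and 0.08. The 39 distal regions of the stretch had a median difference of 0.54, against -0.07 over all distal regions. Windows of 10 Mb with at least 15 promoter regions were also compared, with chromosome 18 left out. Over these 204 windows the median difference ranged from -0.40 to 0.74, and the 3 highest were the last 3 of chromosome 7. Outside the stretch 109 promoter regions stayed called in alpha and 28 in beta. The cause was not tested.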

How the data were processed

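The authors sequenced ATAC-Seq libraries of FACS-sorted alpha, beta, and delta cells as single-end reads and made a separate MACS2 peak list for each library, without pooling replicates. Before that step came read trimming (Trimmomatic), Bowtie 2 mapping to an mm10 index that lacked the mitochondrial chromosome, Picard for duplicates, and a blacklist filter. Tool versions and the MACS2 threshold were not given in the sources used here. The deposited peak lists give positions, a score (10 times -log10 p), the fold enrichment ratio of the summit over its local background, and -log10 p and -log10 q values. The names of the beta lists as deposited carry other cell types, and the labels were followed.

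Peaks were merged at 1 bp overlap (checked against bedtools 2.31.1, with 0 differing regions) and assigned to GENCODE mm10 TSSs. The members and gene lists were chosen with earlier results of these data known. Log2 fold enrichment was quantile-normalized and fitted with limma 3.58.1 in R 4.3.3, with Benjamini-Hochberg adjustment over 17088 regions. Values over libraries were tested with exact permutation tests in SciPy 1.17.1, and sequences were matched to mitochondrial DNA with blastn 2.17.0. Both kinds of test were tested on simulated data. With 2 or 3 libraries a group, p-values measure the spread between these pools. No read counts were analysed: the peak lists hold none, and the read totals the study gives entered no comparison here. Fold enrichment is lower where the background of a library is high, which can lower all of its values. Quantile normalization gives every library the same distribution over the 17088 regions together. It does not remove a shift that differs between promoter and distal regions.

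Named regions were the 10 with the highest lowest percentile, the 5 with the lowest highest percentile, up to 5 per direction and contrast by limma p, up to 4 per gene list and the non-members of short lists, the 5 widest, the 3 with most TSSs, and Mafa and Gc. Not all of them are described. Alternatives covered scaling, peak threshold, TSS definition, sex of the pool, replicate block, and leaving out libraries.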

Additional observations from a re-analysis of the deposited data

How the results depend on the processing

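The promoter regions numbered 5781 when peaks had to reach a -log10 q of 2 and 8978 when any transcript start counted, and the held-out and percentile differences kept their direction and their side of the threshold under every alternative run. The similarity difference did not pass on -log10 p (0.0330, exact p = 0.124) or with any library left out (0.0434 to 0.0851), where without a beta library no p below 0.0667 was possible. With median centring, 175 promoter regions were stronger in beta than in alpha, 70 in beta than in delta, and 20 in delta than in beta. Over all 17088 regions these counts were 864, 275, and 99. On -log10 p, 196 were stronger in alpha than in beta, 59 in beta than in alpha, 1 in alpha than in delta, and 3 in delta than in alpha. The counts over all regions were then 373, 604, 15, and 67. With the sex of the pool as a covariate, 2 were stronger in delta than in alpha, 12 in beta than in delta, and 73 in delta than in beta. All regions together gave 95, 110, and 201. With a replicate block, 217 were stronger in alpha than in beta and 1 in alpha than in delta. In the same fit, 12 were stronger in beta than in delta and 116 in delta than in beta. That block also takes beta 3, the only library numbered 3, out of the contrasts. Deviations from the group means correlated between -0.0230 and 0.0132 for libraries with the same number. In groups of 2 such deviations mirror each other, and whether these libraries share animals was not tested. With the test over the promoter regions alone, an alternative chosen after seeing the data like the mitochondrial and 300 bp ones, 59 were stronger in alpha than in beta. With each library left out, counts ranged from 0 to 198 for alpha over beta, 1 to 36 for beta over alpha, 0 to 2 for alpha over delta and for delta over alpha, 0 to 12 for beta over delta, and 0 to 91 for delta over beta. The cause was not tested, except that fewer libraries leave fewer residual degrees of freedom. No named difference changed sign.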
